A study of Danio rerio with 25 samples.

Results

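The brain miRNAs of the oldest zebrafish (Danio rerio) of an ageing series were compared with those of the youngest. The members are the 5 libraries labelled 3.5 years (42 months) and the 5 labelled 6 months, 10 of the 25 libraries of the series, chosen by their age label alone. All fish were male, of strain AB JxTü. The 42-month fish carried Tg(wt1a:GFP), a GFP reporter driven by sequence of the kidney and mesothelium gene wt1a, and no transgene is named for the 6-month fish. Line and age therefore cannot be told apart in this comparison. Each title of a 6-month library holds 2 numbers and each of a 42-month library 1. Whether these number animals, and whether 2 animals were pooled, is not stated. Small RNA from brain was sequenced with the Illumina TruSeq small RNA kit. Nothing beyond the labels says that the libraries of an age are separate animals, and every p below reflects how these libraries scatter, which may be technical.

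miRNAs are short RNAs cut from hairpin precursors. Loaded into an Argonaute protein, they pair with messenger RNAs, mainly through the seed near their 5′ end, and lower their stability and translation. Related miRNAs share a seed and so overlap in targets, and neighbouring hairpins are often cut from 1 primary transcript. The adult brain is rich in neuronal miRNAs such as miR-9, miR-124 and miR-128, while others are known from epithelium, blood, muscle or liver.

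Counts of the 346 hairpin entries were summed to 217 miRNAs, of which 10 held no count in any of the 10 libraries and 197 passed the filter on low counts and were tested. Levels are CPM, counts scaled to a common library size with TMM factors, and differences are log2 changes of 42 against 6 months with an edgeR quasi-likelihood test on all 25 libraries. The threshold for a call was 0.05 on the p adjusted by Benjamini-Hochberg over the 197. Values of 5 libraries are given in the order of replicates 1 to 5. Total counts ran from 3983783 to 8072968 at 6 months and from 7141523 to 14020920 at 42 months (exact permutation p 0.0556, adjusted over 5 library measures 0.139). The number of miRNAs detected, from 201 to 206 and from 200 to 203, did not differ beyond the spread (two-sided exact permutation p 0.54). Replicates 1, 2 and 5 of 6 months held more than 2000 CPM, before TMM scaling, of the miR-200 family or of the skin miRNAs, both known from epithelium, and no 42-month library did. Without these epithelial-rich libraries 2 libraries remain at 6 months. The 16 neuronal miRNAs, the check of the labelled tissue, were all tested and together held from 129786 to 160846 CPM at 6 and from 148496 to 189573 CPM at 42 months.

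In the 42-month brains 28 miRNAs were higher and 42 lower than in the 6-month brains. The called miRNAs were thus 70 of 197, or 35.5% of those tested, with 14.2% higher and 21.3% lower. The member counts of families and lists given below are to be read beside these shares. Among called miRNAs with a mean of 10 CPM or more, the 8 steepest falls comprised all of the miR-200 family with miR-375 and miR-96, known from epithelium, endocrine cells and sensory cells, and the 3 steepest rises were liver and gut miRNAs. Changes with small errors were found in the miR-15, miR-457, miR-29 and miR-101 groups and in miR-146b. For 53 of the 197 (26.9%) the 5 old and 5 young values were fully separate, with all 42-month libraries above in 10.7% and below in 16.2%, and 44 of the 53 were called. Of the called miRNAs, 9 rose at least 2-fold and 29 fell at least 2-fold. Among the 78 tested miRNAs averaging 1000 CPM or more, 17 rose and 7 fell, with a median size of 0.35 on the log2 scale over those 24. Among the 68 between 100 and 1000 CPM, 6 rose and 20 fell, with a median size of 1.27. Scaled by library totals only, 16 miRNAs were higher and 52 lower. Without young replicate 2, 46 were called, and without young replicate 2 or 5 the number called higher was 17. In bulk brain tissue, fewer cells of a type and less of a miRNA per cell cannot be told apart.

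**Figure D1:**
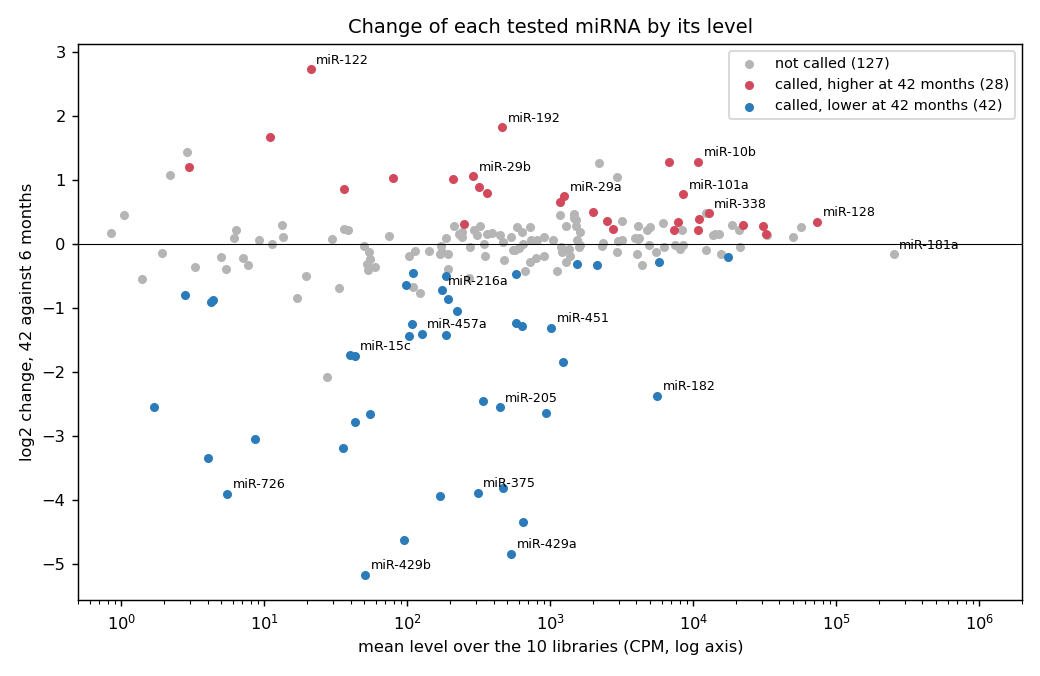
Log2 change of 42 against 6 months (vertical axis) against the mean level over the 10 libraries in CPM (horizontal log axis) for the 197 tested miRNAs, 1 point each, with 28 called higher in red and 42 called lower in blue. The deepest falls lie at low and moderate levels, down to -5.16 for miR-429b, while abundant miRNAs such as miR-128 (0.35) changed by less.

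In the family of miR-15, miR-16 and miR-457, repressors of the cell cycle, 3 of 8 members fell and the summed level did not. miR-15c, which shares its seed with miR-16 and represses cyclins and other cell-cycle genes, was at 59.4, 63.8, 73.6, 63.7 and 69.9 CPM in the 6-month libraries and at 15.2, 22.8, 23.2, 20.1 and 17.5 CPM in the 42-month libraries. Every old library was below every young one (log2 change -1.74, SE 0.21, adjusted p 5.91e-06, n = 5 and 5 in a fit of 25). miR-15b held 749, 698, 942, 851 and 819.5 CPM at 6 months and 269, 421, 415, 344 and 279.5 CPM at 42 months, again without overlap (log2 change -1.23, SE 0.16, adjusted p 9.33e-06). Its genomic neighbour miR-457a, a fish member of the family, went from 186, 176, 190.0, 189 and 175 CPM to 51.8, 85.2, 76.5, 77.0 and 57.1 CPM (log2 change -1.40, SE 0.18, adjusted p 9.73e-06). The old replicates 1 and 5 were the lowest of the 5 for all 3 miRNAs. miR-15a moved the other way, from 912, 727, 785, 1223 and 896 CPM to 1054, 940.0, 1690.0, 1655 and 1831 CPM, with overlapping ranges (log2 change 0.66, SE 0.25, adjusted p 0.0467). That rise was not called with limma-voom or with library totals only, and among the fits without 1 library it held only without young replicate 4 or old replicate 1 or 2. Of the 8 family members, all tested, 3 fell, 1 rose and 4 did not pass, beside 21.3% lower and 14.2% higher over all 197. The family median of -0.15 stands beside -0.02 over all 197. The summed family level was 6648 ± 783 CPM (mean ± SD, n = 5) at 6 months and 6751 ± 1347 CPM at 42 months. miR-16a, whose hairpin neighbours that of miR-15c, was at 66.3, 70.9, 66.2, 66.8 and 65.7 CPM and 34.3, 43.5, 64.0, 63.1 and 55.8 CPM; its ranges did not overlap, yet it was not called (-0.37, adjusted p 0.248). miR-457b was low throughout, at 12.0 ± 1.46 CPM (mean ± SD, n = 5) at 6 months and 14.7 ± 1.802 CPM at 42 months (0.30, adjusted p 0.135).

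**Figure D2:**
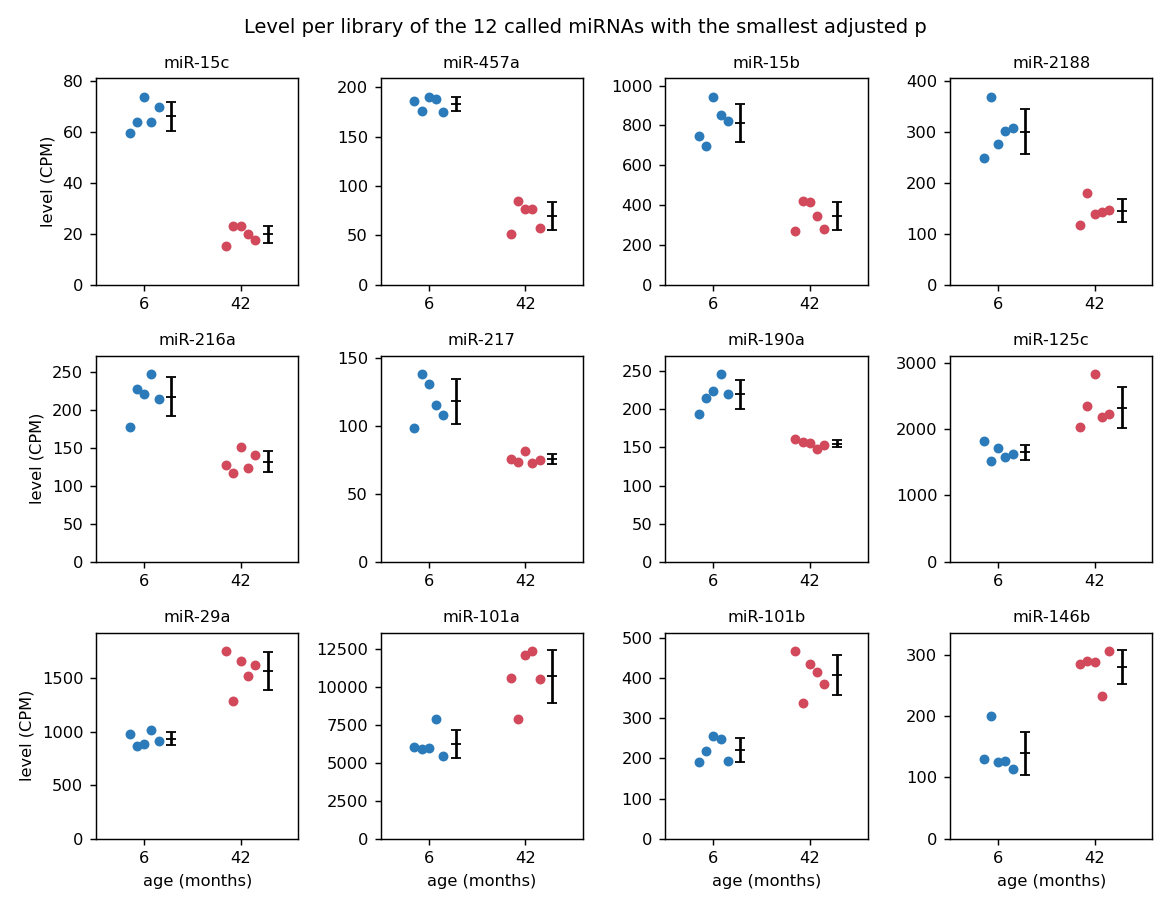
Level in CPM (vertical axis, from 0) in each of the 5 libraries of 6 months (blue) and 42 months (red) for the 12 called miRNAs with the smallest adjusted p, points in replicate order with mean and SD bars beside them. In all 12 panels the ages do not overlap: 7 miRNAs, from miR-15c to miR-190a, are lower at 42 months and 5, from miR-125c to miR-146b, are higher.

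The miR-29 family rose with both of its tested members. miR-29a, which represses collagens and other matrix genes, was at 984, 872, 891, 1017 and 912 CPM at 6 months and 1753, 1293, 1659, 1518 and 1623 CPM at 42 months (log2 change 0.75, SE 0.10, adjusted p 1.14e-05). miR-29b, with the same seed and in part from a hairpin next to that of miR-29a, went from 187, 177, 171, 227 and 171 CPM to 426, 255, 409.9, 448 and 407 CPM (log2 change 1.06, SE 0.21, adjusted p 8.42e-04). All old libraries were above all young ones for both, and old replicate 2 was the lowest of its age in both. Without the libraries rich in epithelial miRNAs miR-29b changed by 0.99 (SE 0.35, adjusted p 0.0859), and miR-29a kept its call at 0.74 (SE 0.12, adjusted p 0.0012).

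miR-101, known for repressing the Polycomb methyltransferase gene EZH2 in mammals, rose in both of its forms. miR-101a held 6046, 5876, 5944, 7872 and 5442 CPM at 6 months, replicate 4 standing above the rest, and 10569, 7908, 12099.5, 12326 and 10486 CPM at 42 months. Its highest young library lay just below its lowest old one (log2 change 0.78, SE 0.14, adjusted p 2.76e-04). miR-101b was at 189.9, 219, 255, 248 and 194 CPM and 466, 337, 436, 415 and 386 CPM and was wider apart (log2 change 0.88, SE 0.13, adjusted p 3.97e-05). Both members of the miR-26 family, abundant brain miRNAs, were also called, at smaller sizes: miR-26b rose from 27567 ± 1666 to 33605 ± 3895 CPM (0.29, adjusted p 0.0128) and miR-26a from 30289 ± 1090.3 to 33938 ± 2369.7 CPM (0.16, adjusted p 0.0376), each with overlapping ranges. With library totals only neither miR-26 call held, and that of miR-26a was lost without young replicate 2 or 4 or old replicate 3, 4 or 5.

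miR-146b, which damps innate immune signalling by repressing signalling genes downstream of Toll-like receptors in mammals, rose about 2-fold. The young libraries held 131, 200.2, 125, 126 and 114 CPM, with replicate 2 the highest, and the old ones 284, 290.1, 288, 233 and 306 CPM, all above it (log2 change 1.01, SE 0.16, adjusted p 9.27e-05). It was the single called member of the 4 inflammation miRNAs, and miR-21, the most abundant of them, was at 27058, 31878, 32736, 32402 and 31051 CPM and 33366, 34325, 39125, 31466 and 32849.5 CPM without a call (0.14, adjusted p 0.492). None of the 4 leukocyte miRNAs was called by edgeR, with a median of -0.06; their summed level was 1241, 2645, 1313, 1343 and 1550.1 CPM at 6 months and 1239.8, 1613, 1580.2, 1571 and 1457 CPM at 42 months. That sum was highest in young replicate 2, the library in which miR-146b was also highest for its age.

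A further group fell by less than 2-fold with little spread. miR-216a, known from exocrine pancreas and of moderate level in these libraries, was at 177, 227, 221.6, 247 and 214 CPM in young and 128, 116, 152, 124 and 140.4 CPM in old libraries (log2 change -0.72, SE 0.12, adjusted p 9.27e-05). miR-217, from the same genomic region in vertebrates, was at 98.3, 138, 131, 116 and 108 CPM and 75.8, 73.7, 81.9, 73.0 and 75.1 CPM (log2 change -0.64, SE 0.11, adjusted p 2.76e-04). miR-190a, whose gene lies within a talin gene in mammals, went from 194, 214, 223, 246 and 221 CPM to 162, 157, 156, 148 and 153 CPM (log2 change -0.50, SE 0.09, adjusted p 3.56e-04). No old library reached a young one in any of the 3, and the old libraries differed least among themselves for miR-190a and miR-217. miR-216b, the neighbour of miR-216a, missed the threshold (-0.28, adjusted p 0.0505). miR-2188, a little-studied vertebrate miRNA, fell by about 2-fold, from 249, 368, 277, 301.05 and 308 CPM to 118, 180.2, 139, 142 and 147 CPM, again without overlap (log2 change -1.05, SE 0.18, adjusted p 1.59e-04).

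Of the 5 miRNAs of the miR-99, miR-100 and miR-125 group, which often neighbour let-7 hairpins, 3 were called higher, beside 14.2% of all tested. miR-125c was at 1811, 1523, 1712, 1574 and 1626 CPM in young and 2036, 2349, 2823, 2183 and 2221 CPM in old libraries, with no overlap (log2 change 0.49, SE 0.09, adjusted p 5.09e-04). miR-100 (0.39, adjusted p 6.93e-04) and miR-125b (0.22, adjusted p 0.0313) rose as well. With the epithelial covariates miR-125c was the single one called, at 0.41 (adjusted p 0.0414), beside 0.19 (adjusted p 0.131) for miR-100 and 0.08 (adjusted p 0.594) for miR-125b. miR-125b lost its call without young replicate 2 or 5 or old replicate 3 or 4 and with library totals only. Of the 10 let-7 miRNAs, which promote differentiation, let-7e alone was called (0.22, adjusted p 0.039), and 9 did not pass, with a median of 0.14. let-7a, the most abundant of them, held 52489.6, 46915, 47204, 59887 and 51314 CPM at 6 months and 51928, 51228, 76361, 63707 and 67469 CPM at 42 months, ranges that overlap (0.27, adjusted p 0.0947). The let-7e call held only without young replicate 1 or 4 or old replicate 1 or 2 among the fits without 1 library, and not with library totals only.

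The most abundant miRNA, miR-181a, took 28.05% ± 1.23 (SD, n = 5) of all counts at 6 months and 23.9% ± 1.93 at 42 months. This difference of -4.19 percentage points had the smallest p that the 252 splits of 5 against 5 can give (two-sided exact permutation p 0.00794, adjusted over 5 library measures 0.0397), with the young libraries between 26.9% and 29.4% and the old between 21.5% and 26.7%. Without any 1 of the 6-month libraries the adjusted p was between 0.0595 and 0.0794, although the ranges stayed apart (exact permutation p 0.0159 of 126 splits). On the TMM scale miR-181a held 257374, 243956, 285067, 292533 and 251383 CPM and 232460.0, 257402, 224509, 246741 and 234589 CPM, and was not called (-0.15, adjusted p 0.161). miR-181b was called lower at -0.20, adjusted p 0.0421, a call that held only without young replicate 1 among the fits that leave out a library. It was also lost with DESeq2, with DESeq2 size factors, with limma-voom and with both other filters. With library totals only, miR-181b (-0.28, adjusted p 0.00288) and miR-181a (-0.23, adjusted p 0.0175) were both called lower. With all 10 libraries, the share of the 10 most abundant miRNAs was not told apart between the ages (exact permutation p 0.421). Nor was the effective number of miRNAs, 30.3 at 6 and 31.8 at 42 months (exact permutation p 0.238). Without the epithelial-rich libraries, with 2 libraries left at 6 months, the share differed by -2.60 percentage points and the effective number by 3.86. Each then had the smallest p that 21 splits can give (exact permutation p 0.0476). Neither passed after adjustment (exact permutation adjusted p 0.0794).

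Of the 16 neuronal miRNAs 1 was higher, 1 lower and 14 did not pass, with a median of 0.03. Over all tested miRNAs 14.2% were higher and 21.3% lower. miR-128, a repressor of neuronal excitability in mammals, was at 69634, 52724, 67775, 68972 and 64917 CPM in young and 90683, 71798, 91983, 74344 and 83238 CPM in old libraries (log2 change 0.35, SE 0.13, adjusted p 0.039). Young replicate 2 was the lowest of all 10 and the call was lost without it, without young replicate 5, without old replicate 3 or 5 and with library totals only (0.26, adjusted p 0.0601). miR-9, which regulates neural progenitors, held 48482, 41286, 51877, 52078 and 43268 CPM and 48501, 43956, 58089, 58819.7 and 47721 CPM and was not called (0.12, adjusted p 0.257). miR-135b was called lower (-0.47, adjusted p 0.043), a call that held only without young replicate 4 among the fits without 1 library. The miR-135b call was also lost with DESeq2 size factors, with limma-voom and with both other filters. The oligodendrocyte miRNA miR-338, which promotes myelinating cells, rose from 10698 ± 954 to 14979 ± 1189.7 CPM with no overlap (0.49, adjusted p 0.00199), while its partner in that list, miR-219, missed the threshold (0.27, adjusted p 0.0569). With the epithelial sums as covariates the change of miR-338 was 0.18 (adjusted p 0.243). Of the activity-regulated pair, which responds to neuronal firing, miR-212 was called (0.35, adjusted p 0.0279; not without young replicate 2 or old replicate 3 or with library totals only) and its neighbour miR-132 was not (0.22, adjusted p 0.131). Neither miRNA of the endothelial miR-126 pair was called by edgeR; their sum was 6302 ± 650.3 CPM at 6 and 6569 ± 453.7 CPM at 42 months.

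The steepest falls included those of the miR-200 family, which keeps epithelial cells epithelial by repressing ZEB factors. All 6 members were lower, where 21.3% of all tested miRNAs were, with a median log2 change of -4.48. miR-429b was at 244, 5.396, 16.4, 1.66 and 228 CPM in young libraries and 9.24, 0.989, 1.04, 1.22 and 1.40 CPM in old ones (log2 change -5.16, SE 1.77, adjusted p 0.0279). miR-429a held 2447, 293, 220.2, 114 and 2052 CPM and 97.1, 31.5, 14, 13.7 and 23.9 CPM (log2 change -4.83, SE 1.38, adjusted p 0.0128). Young replicates 1 and 5 were far above the other 3 for both, and old replicate 1 was the highest of its age. The miR-429b call was lost with limma-voom and without young replicate 1 or 5 or old replicate 2, 3, 4 or 5. miR-200b went from 413, 58.1, 30.8, 24.6 and 378 CPM to 18.6, 6.03, 3.89, 2.22 and 6.15 CPM (log2 change -4.62, SE 1.34, adjusted p 0.0128). miR-200a was at 2795, 426, 294, 187 and 2435 CPM and 166, 55.2, 19.6, 19.8 and 43.9 CPM (log2 change -4.34, SE 1.32, adjusted p 0.0157). The same 2 young libraries led in these members and in those that follow. miR-200c held 729, 91.3, 66.8, 40.8 and 647 CPM and 37.1, 22.7, 9.72, 14.2 and 19.7 CPM (log2 change -3.93, SE 1.13, adjusted p 0.0128). miR-141 was at 1999, 282, 212, 101.6 and 1781 CPM and 137, 59.8, 26.96, 37.4 and 50.3 CPM (log2 change -3.81, SE 1.18, adjusted p 0.0165). Old libraries stayed below every young one for miR-200a, miR-200b, miR-200c and miR-429a, while for miR-141 old replicate 1 lay above young replicate 4 and for miR-429b above young replicates 2 and 4. Without the libraries rich in epithelial miRNAs, which removes the highest young values by construction, the changes were between -2.18 for miR-429a (adjusted p 0.0579) and -1.30 for miR-141, and miR-200c, at -1.35 (SE 0.42, adjusted p 0.0493), was the single one still called.

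**Figure D3:**
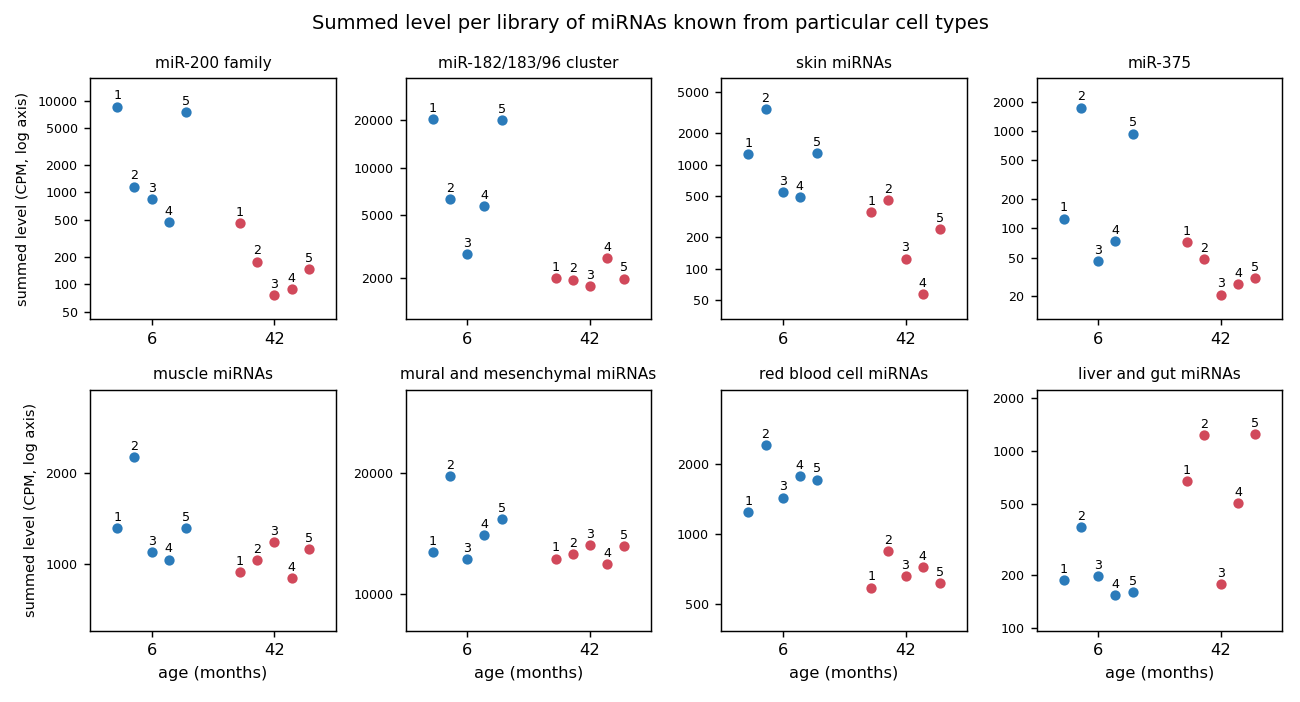
Summed level in CPM (vertical log axis) in each library of 6 months (blue) and 42 months (red) for 7 lists of cell-type miRNAs and for miR-375, with replicate numbers beside the points. Young replicates 1 and 5 lead in the miR-200 family and the cluster of miR-182, miR-183 and miR-96, young replicate 2 in the skin, muscle, mural and red blood cell lists, and old replicates 2 and 5 in the liver and gut list.

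The sensory-cell cluster of miR-182, miR-183 and miR-96, known from photoreceptors and hair cells and cut from neighbouring hairpins, fell with all 3 members. miR-96 was at 111, 26.8, 14.6, 45.7 and 120.4 CPM in young and 8.49, 6.13, 6.09, 7.73 and 6.71 CPM in old libraries (log2 change -3.18, SE 0.91, adjusted p 0.0128). miR-183 (-2.63, adjusted p 0.0128) and the more abundant miR-182 (-2.36, adjusted p 0.0128) were also lower with no overlap. The summed level of the 3 was 20228, 6335, 2844, 5723 and 19961 CPM at 6 months, led by the same replicates 1 and 5 as the miR-200 family, and 1996, 1965, 1783, 2674 and 1993 CPM at 42 months. Without the epithelial-rich libraries the changes were -2.07 for miR-96 (adjusted p 0.0615), -1.18 for miR-183 and -0.99 for miR-182, none called. miR-34b and miR-34c, neighbours known from ciliated cells, had the same young replicates at the top, with 264, 62.4, 95.5, 109.7 and 213 CPM of miR-34c at 6 months against 47.1, 73.5, 56.0, 56.5 and 41.1 CPM at 42 months. Both were lower (-1.25, adjusted p 0.0112 and -1.44, adjusted p 0.0109), with young replicate 2 inside the old range, while miR-34a, a target of p53 from a separate gene, was not called (-0.19, adjusted p 0.327). Without the epithelial-rich libraries the changes were -0.78 (adjusted p 0.0615) for miR-34b and -0.88 (adjusted p 0.0615) for miR-34c, and with the epithelial sums as covariates -0.67 and -0.69, none called.

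miR-375, known from pancreatic islets and pituitary, was at 125, 1729.6, 46.1, 73.5 and 939 CPM in young and 71.8, 48.2, 20.7, 26.4 and 30.6 CPM in old libraries (log2 change -3.88, SE 1.14, adjusted p 0.0136). Young replicates 2 and 5 stood far above all others, young replicates 1 and 4 lay above the old range and young replicate 3 lay within it. It was not called with limma-voom or without young replicate 2 (adjusted p 0.0554), and without the epithelial-rich libraries its change was -0.57 (SE 1.19, adjusted p 0.79). All 3 skin miRNAs, miR-203a (-2.77, adjusted p 0.0111), miR-203b (-2.45, adjusted p 0.0166) and miR-205 (-2.54, adjusted p 0.0152), which act in epidermal differentiation, were lower. Their summed level was 1253, 3432, 541, 486 and 1296 CPM in young and 348, 455, 125, 57.3 and 239.5 CPM in old libraries, young replicate 2 being the highest. Their changes without the epithelial-rich libraries were -1.15, -1.16 and -0.92, none called, and without young replicate 2 alone miR-203b and miR-205 were not called. The fish miRNA miR-725, with 92.2, 199.8, 39.0, 64.8 and 78.5 CPM and 33.1, 18.0, 6.09, 0.716 and 17.5 CPM, was lower without overlap (-2.66, adjusted p 0.0128) and led by that same young replicate 2. The rare miR-726 was lower too, at 7.85, 14.9, 5.95, 2.07 and 21.0 CPM against 1.12, 0.692, 0.778, 0.43 and 0.419 CPM (-3.89, adjusted p 0.0162). Neither was called without the epithelial-rich libraries, with -1.76 (adjusted p 0.203) for miR-725 and -2.52 (adjusted p 0.259) for miR-726, and with the covariates miR-725 changed by -0.87 (adjusted p 0.304).

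Young replicate 2 also stood out in muscle miRNAs. miR-206, made in skeletal muscle, was at 3.40, 55.1, 3.90, 1.45 and 12.3 CPM in young and 3.37, 1.48, 2.98, 0.43 and 1.12 CPM in old libraries (-3.04, adjusted p 0.0279), and its neighbour miR-133c moved likewise (-3.35, adjusted p 0.0152). Without young replicate 2 neither was called, with adjusted p values of 0.235 and 0.14, and miR-206 was also lost without old replicate 2, 4 or 5 and with limma-voom. Without all 3 epithelial-rich libraries the changes were -0.52 (adjusted p 0.683) for miR-206 and -0.64 (adjusted p 0.625) for miR-133c. The other 4 of the 6 muscle miRNAs did not pass, miR-133a with -0.42, adjusted p 0.0508 among them. Of all tested miRNAs 21.3% were lower. Of the 4 mural and mesenchymal miRNAs, miR-199 and miR-214, neighbours known from fibroblasts and pericytes, were lower. miR-199 held 2024, 3206, 817, 1217 and 2332 CPM and 539.6, 671, 638, 356 and 479 CPM (log2 change -1.84, SE 0.47, adjusted p 0.00757), and miR-214 58.6, 98.9, 34.6, 41.2 and 73.6 CPM and 19.8, 25.0, 18.0, 13.2 and 15.9 CPM (log2 change -1.74, SE 0.44, adjusted p 0.00597). Both were again highest in young replicates 2 and 5, next replicate 1, yet the lowest young library stayed above the highest old one. Without the epithelial-rich libraries miR-214 was called at -1.02 (SE 0.30, adjusted p 0.0455) and miR-199 was not at -0.90 (SE 0.34, adjusted p 0.0956). In the edgeR fit with the epithelial covariates neither was called, with -0.45 (adjusted p 0.487) for miR-214 and -0.45 (adjusted p 0.547) for miR-199. The part of these cells and tissues in the falls was not tested.

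miR-144 and miR-451, made together in red blood cells from neighbouring hairpins, were lower. miR-144 was at 196, 385, 264, 249.5 and 251 CPM in young and 82.1, 108, 94.1, 120.4 and 97.0 CPM in old libraries (log2 change -1.42, SE 0.30, adjusted p 0.00116). miR-451, whose maturation bypasses Dicer, was at 1045, 2025, 1165, 1513 and 1455 CPM and 505, 733, 565, 600.4 and 516 CPM (log2 change -1.30, SE 0.30, adjusted p 0.00318). All old libraries lay below all young ones for both, and young replicate 2 was the highest. Without the epithelial-rich libraries the changes were -1.33 (SE 0.40, adjusted p 0.048) for miR-144 and -1.17 (SE 0.42, adjusted p 0.0867) for miR-451.

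The 3 tested liver and gut miRNAs, of 4 in the list, rose by the largest factors. miR-122, the liver's dominant miRNA, was at 3.40, 7.27, 4.51, 4.97 and 7.45 CPM in young and 22.3, 69.0, 1.94, 15.2 and 74.7 CPM in old libraries (log2 change 2.73, SE 0.88, adjusted p 0.0207). miR-192, known from gut, liver and kidney, held 176, 359, 186, 144 and 147 CPM and 642, 1132, 172, 484 and 1148 CPM (log2 change 1.82, SE 0.49, adjusted p 0.0107). miR-194a, its neighbour, was at 6.28, 7.27, 4.92, 3.10 and 4.42 CPM and 14.9, 28.3, 3.24, 10.4 and 26.7 CPM (log2 change 1.67, SE 0.56, adjusted p 0.0249). Old replicates 2 and 5 were the highest and old replicate 3 was within or below the young range for all 3, so that the ages overlap. miR-122 was not called with limma-voom or without old replicate 5 (adjusted p 0.0619). miR-194a was not called with limma-voom or without young replicate 4 or 5 or old replicate 2 or 5. Without the epithelial-rich libraries the changes were 2.98, 2.15 and 2.09, and none was called with the 2 young libraries that remain. None of the 3 was called by edgeR at 42 against 12, 24 or 36 months. At 12 months miR-122 averaged 28.6, miR-192 576 and miR-194a 15.9 CPM, beside 36.6, 716 and 16.7 CPM at 42 months. The means at 36 months were 6.23, 296 and 7.27 CPM.

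miR-10 hairpins lie within Hox clusters, whose genes set position along the hindbrain and spinal cord, and 2 members were higher in old libraries. miR-10b was at 8708, 6449, 7237, 2840.4 and 6119.7 CPM in young and 13867, 17809, 11902, 14286 and 18697 CPM in old libraries (log2 change 1.29, SE 0.44, adjusted p 0.0279). miR-10c held 5403, 4187, 5109, 1353 and 3582 CPM and 8509, 11498, 7390.0, 10042 and 10474 CPM (log2 change 1.29, SE 0.48, adjusted p 0.0412). Young replicate 4 was the lowest by far, and no young library reached an old one. miR-10a (1.27, adjusted p 0.0727) and miR-10d (1.05, adjusted p 0.0653) did not pass. Thus 2 of the 7 tested Hox cluster miRNAs were called, both higher, beside 14.2% higher over all tested. With limma-voom neither miR-10b nor miR-10c was called. miR-10b lost its call without young replicate 2, 4 or 5 or old replicate 5, and miR-10c without those and old replicate 2 or 4. How much hindbrain or spinal cord each sample held is not given in the labels, and its part was not tested. miR-222b, known from endothelium, rose from 56.1, 64.5, 39.6, 45.7 and 54.5 CPM to 84.5, 95.6, 118, 117 and 118 CPM without overlap (log2 change 1.03, SE 0.33, adjusted p 0.0205), and neither limma-voom nor the fit with epithelial covariates called it. Of the 3 members of the miR-221 and miR-222 family it was the single one called.

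Of families linked to proliferation, the 15 miR-17-92 miRNAs had a median of -0.11. By edgeR 2 of them fell and none rose, beside 21.3% and 14.2% of all tested miRNAs. The 2 were the rare miR-20b (-0.91, adjusted p 0.0165) and miR-18c (-0.80, adjusted p 0.0408), at 5.53 ± 1.43 and 3.57 ± 1.08 CPM at 6 months. miR-20b lost its call without young replicate 2 or old replicate 5, and that of miR-18c held only without young replicate 1 or old replicate 3. Their hairpins lie within 10 kb of each other in the RefSeq annotation (assembly GRCz12tu). Beside 21.3% of all tested miRNAs, 3 of 5 members of the miR-30 family, frequent in differentiated cells, fell. The neighbours miR-30c (-0.33, adjusted p 0.0131) and miR-30e (-0.28, adjusted p 0.00521) were 2 of them and the rare miR-30a (-0.88, adjusted p 0.0152) the third, lost without young replicate 2 and at -0.15 (adjusted p 0.78) without the epithelial-rich libraries; miR-30c was lost without old replicate 1. Of the 8 miRNAs of the miR-130, miR-301 and miR-454 family, miR-454b alone was called, lower from 1689.5 ± 114 to 1364 ± 109 CPM (-0.31, adjusted p 0.00447). Of the 8 miR-23/24/27 miRNAs, miR-27b alone was called, higher from 20059.5 ± 977 to 24533 ± 1130.3 CPM with no overlap (0.29, adjusted p 0.00909), and at 0.09 (adjusted p 0.522) with the epithelial covariates.

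The remaining called miRNAs belong to no family described so far. miR-1388, a little-studied vertebrate miRNA, was higher, at 338, 287, 239, 230.5 and 225 CPM in young and 323, 429.6, 409, 589 and 532 CPM in old libraries (0.79, adjusted p 0.00318), where old replicate 1 lay inside the young range. miR-187 (0.24, adjusted p 0.0187), miR-22b (0.36, adjusted p 0.0472), miR-730 (0.31, adjusted p 0.0462), miR-732 (0.86, adjusted p 0.0483) and the rare miR-202 (1.21, adjusted p 0.0111) were also higher. miR-732 rested on old replicates 1 and 4, the old values being 90.4, 26.5, 28.4, 63.7 and 24.6 CPM, and was not called without either of them or without any 1 young library. miR-2184 (-1.28, adjusted p 0.0153), miR-455 (-0.85, adjusted p 0.0196), miR-460 (-0.46, adjusted p 0.0108) and the rare miR-1788 (-2.54, adjusted p 0.0247) were lower. Several of these calls were lost when 1 library was left out. Among the fits without 1 library, miR-22b held only without young replicate 3 or old replicate 5 and miR-730 only without young replicate 4 or old replicate 1. miR-1788 was lost without young replicate 2 or old replicate 3, 4 or 5, miR-187 without young replicate 2 or 5, miR-455 without young replicate 2 or old replicate 4, and miR-2184 without young replicate 2. Leaving out the epithelial-rich libraries gave -0.83 (adjusted p 0.173) for miR-2184, -1.67 (adjusted p 0.24) for miR-1788 and -0.32 (adjusted p 0.107) for miR-460, none called.

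Genomic neighbours, hairpins within 10 kb of each other in the RefSeq annotation, formed 46 clusters. In 20 of them no member was called, in 14 some members were, and in 1 a single name was tested. In the other 11 every tested member was called in the same direction. Over all 197 tested miRNAs 35.5% were called, and how many such clusters chance would give was not tested. The 11 were the pairs miR-15b with miR-457a, miR-29a with miR-29b, miR-34b with miR-34c, miR-144 with miR-451, miR-192 with miR-194a, miR-199 with miR-214, miR-133c with miR-206 and miR-30c with miR-30e, both miR-200 clusters and the cluster of miR-182, miR-183 and miR-96. Among the 14 were those with miR-15c but not miR-16a, miR-216a but not miR-216b, and miR-212 but not miR-132. The annotation matched 334 of the 346 hairpin entries and was used for neighbourhood only, since the build behind the counts is not given in the sources used here. Where a name has copies at several places, as for miR-29b and miR-199, the summed count cannot say which copy moved. Likewise miR-206, with hairpins in 2 clusters, enters both with the same summed value. Tested one by one, 81 of the 269 hairpin entries that passed the filter (30.1%) were called.

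Leaving out the 7 libraries of the series rich in epithelial miRNAs, 3 of them 6-month libraries, 24 miRNAs of 199 tested (12.1%) were called and 23 of those were among the 70. The 23 comprise 10 that rose and 13 that fell. They are miR-15b, miR-15c, miR-457a, miR-29a, miR-101a, miR-101b, miR-146b, miR-216a, miR-217, miR-190a, miR-2188, miR-125c, miR-100, miR-338, miR-27b, miR-1388, miR-222b, miR-144, miR-454b, miR-214, miR-200c, miR-20b and miR-18c, and the other 47 calls were lost. All 70 kept the sign of their change. The same 42-month libraries and 2 of the 6-month libraries were used again, and for 44 of the 70 the ages did not overlap. Their kept sign was thus largely fixed in advance and is no result. Of the 70, 16, all falls, shrank to 50% or less of their change on the log2 scale. Among the 16 are all 6 miR-200 family members and all 3 skin miRNAs. Their summed levels chose the libraries left out, so that their shrinkage follows by construction and is no result. With the 2 epithelial sums as covariates in place of leaving libraries out, 22 miRNAs (11.2%) passed, and 19 of the 70 kept their call, namely the 13 named next with miR-29b, miR-30c, miR-30e, miR-192, miR-202 and miR-26b. With library totals only 58 of the 70 calls held, and those lost were miR-26a, miR-26b, miR-187, miR-212, miR-125b, miR-128, let-7e, miR-10c, miR-730, miR-15a, miR-22b and miR-732. Across all 19 alternative settings, leave-one-out fits included, 13 miRNAs kept their call where they were tested: miR-29a, miR-101a, miR-101b, miR-125c and miR-146b higher, and miR-15b, miR-15c, miR-457a, miR-144, miR-190a, miR-216a, miR-217 and miR-2188 lower.

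**Figure D4:**
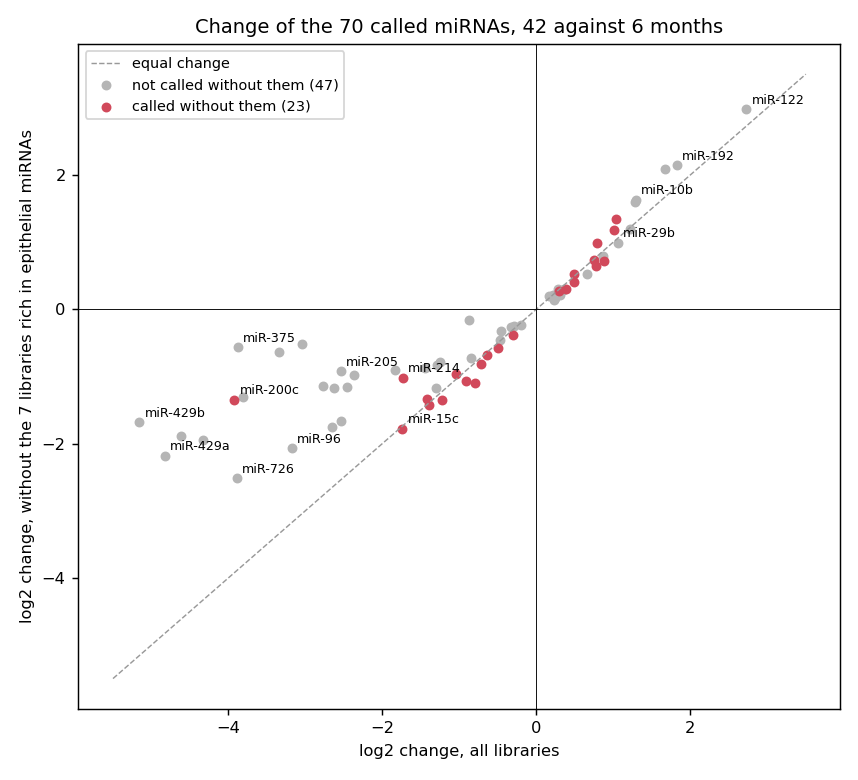
Log2 change of 42 against 6 months without the 7 libraries rich in epithelial miRNAs (vertical axis) against the change with all libraries (horizontal axis) for the 70 called miRNAs, with the 23 still called in red and a dashed line of equal change. miR-429b, miR-375 and miR-205 lie far above the line at the left, whereas miR-15c and miR-29b lie on or near it. miR-429b and miR-205 belong to the sums by which the libraries were chosen.

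The oldest age was then set against the ages in between, in the same fit and with the same 42-month libraries. 42 against 12 months called 33 of 197 miRNAs (16.8%), 12 higher and 21 lower. 42 against 24 months called 2 (1.02%), both lower: let-7d (-0.33, adjusted p 0.00982) and miR-181b (-0.32, adjusted p 0.0301), with 33 at an unadjusted p under 0.05. 42 against 36 months called miR-31 alone (0.508%), lower with a log2 change of -1.58 and adjusted p 0.0121, with 29 at an unadjusted p under 0.05. DESeq2 called more in both, 13 and 12, a test added after seeing the data. The groups differ in transgenic line here as well, Tg(flk:mCherry) being named at 12 months, none at 24 and Tg(pu.1:GFP) at 36 months.

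The means of the 13 miRNAs called under every setting did not all move between the same ages. A difference in timing between miRNAs was not tested. miR-15b averaged 812 ± 94.1 CPM at 6 months and 670.5 ± 172 CPM at 12 months. Its 24-month mean was 373 ± 31.6 CPM, followed by 355 ± 23.8 at 36 and 345 ± 71.8 CPM for the oldest fish. It was still lower at 42 than at 12 months (-0.96, adjusted p 8.08e-04), and at 42 against 24 months the change was -0.11 (SE 0.16, adjusted p 0.806). miR-216a had a mean of 218 ± 25.6 CPM at 6 months and 134 ± 17.4 CPM at 12. Later means were 135 ± 19.1 CPM (24 months), 132 ± 12.5 CPM (36) and 132 ± 14.1 CPM (42), and 42 against 12 months gave -0.02 (SE 0.12, adjusted p 0.936). miR-101b averaged 221 ± 29.8 CPM at 6, 289 ± 49.5 at 24 and 408 ± 49.5 at 42 months, with 0.50 (SE 0.13, adjusted p 0.0601) at 42 against 24 months. At 42 against 12 months 5 of the 13 were called: miR-15b, miR-15c, miR-457a, miR-101b and miR-146b. Of the 70 called miRNAs 18 (25.7%) were called there, and of all tested 16.8%. The 13 and the 70 were chosen on the same 42-month libraries, which favours a higher share among them. At 42 against 24 months edgeR called none of the 13, the smallest adjusted p being 0.0601, with 4 at an unadjusted p under 0.05 and changes between -0.48 and 0.50. That miss does not show that the 2 ages are alike.

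**Figure D5:**
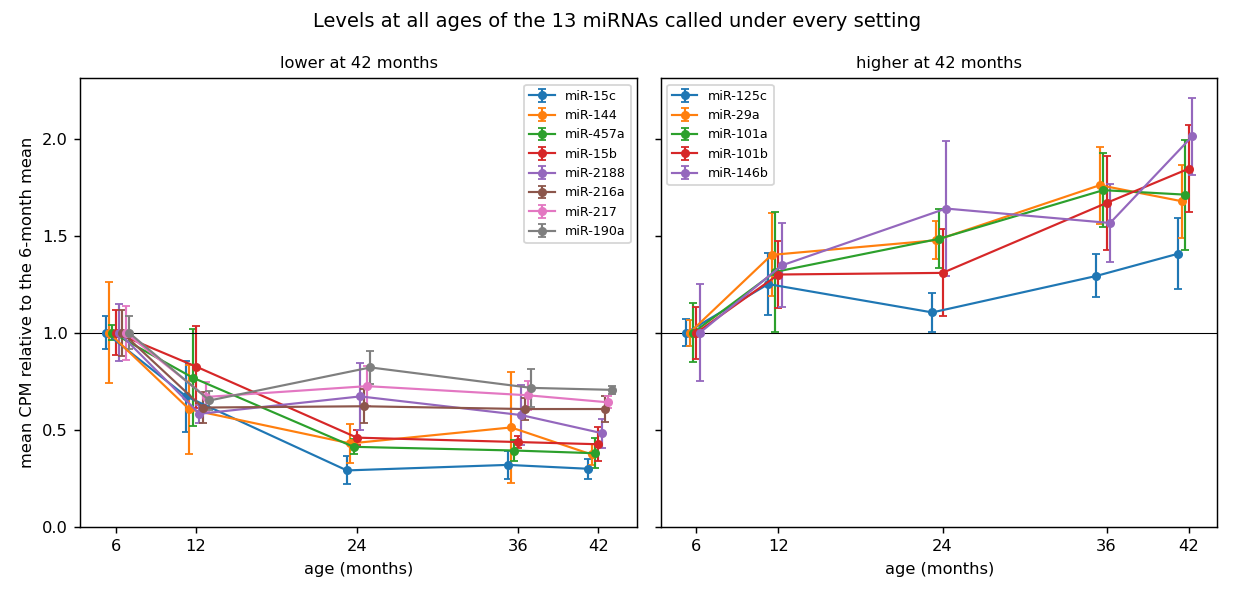
Mean level in CPM relative to the 6-month mean (vertical axis, from 0) by age in months (horizontal axis) for the 8 lower and 5 higher miRNAs called under every setting, with SD bars over 5 libraries, shifted sideways for legibility. The means of miR-15b, miR-15c and miR-457a at 24, 36 and 42 months all lie below those at 6 and 12 months, and those of miR-216a and miR-217 at 12 months lie close to those at 42 months.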

How the data were processed

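Small RNA from 25 male brains or brain pools, 5 libraries at each of 5 ages, was sequenced by the authors, who deposited whole-number counts for 346 hairpin entries. SAMtools 1.3.1-9, BWA 0.7.12-r1039, Trimmomatic 0.36 and CASAVA 1.8.4 were used, per the submitters' processing notes, which give no role or order. Genome build, miRNA annotation and counter: not given in the sources used here. Reads of both arms are in 1 hairpin count, and near-identical miRNAs and copies can share reads, so that single members of such families are uncertain. No use of molecular identifiers is stated.

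Counts of numbered copies were summed by miRNA name. In R 4.3.3, edgeR 4.0.16 (quasi-likelihood test, robust, TMM factors) was fitted to all 25 libraries by age. filterByExpr with a count minimum of 10 and a total minimum of 15 left 197 of 217 miRNAs, and p was adjusted by Benjamini-Hochberg over the 197. CPM are TMM-scaled. Library measures were compared with two-sided exact permutation tests over 252 splits, and the effective number is the exponential of the Shannon entropy of the shares. Total counts of the 10 libraries were 3983783 to 14020920. Replicates are numbered in accession order.

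The members and lists were chosen with earlier results of these data known. Per-library values were given for the 12 called miRNAs of smallest adjusted p, the 8 largest rises and 8 largest falls with a mean of at least 10 CPM, and the 5 most abundant; other called miRNAs were named with fewer values or as examples. Uncalled miRNAs and some further per-library values were chosen after their values were seen. Alternatives were other scalings, DESeq2 1.42.0, limma-voom (limma 3.58.1), the 10 libraries alone, other filters, single hairpins, leaving out each library, and leaving out or adjusting for epithelial miRNAs. DESeq2 for the other ages was added after seeing the data. Neighbouring hairpins were taken from RefSeq (GRCz12tu). Mature sequences were not used here.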

Additional observations from a re-analysis of the deposited data

Results flagged for a closer look

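Within each age, 134 groups of 5 values were examined, and 18 held a library whose gap to the nearest of the others was more than 0.71 of the range of the 5. For normally distributed values chance flags about 1 group in 20, and this rate need not hold for levels in CPM, which can be skewed. Many of these groups share libraries and miRNAs.

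Young replicate 2 stood apart most often. It was the highest 6-month library for miR-146b at 200.2 CPM and for miR-192 at 359 CPM, and the lowest for miR-128 at 52724 CPM. It was also the highest for the summed levels of the skin miRNAs (3432 CPM), the leukocyte miRNAs (2645 CPM), the muscle miRNAs (2261 CPM) and the liver and gut miRNAs (373 CPM). Young replicate 4 was the highest of its age for miR-101a at 7872 CPM and for the miR-101 family at 8119.5 CPM. Young replicate 1 was the lowest for the inflammation miRNAs at 28079 CPM.

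Among the 42-month libraries, replicate 1 was the highest for miR-200b at 18.6 CPM, miR-429a at 97.1 CPM, miR-200a at 166 CPM and miR-429b at 9.24 CPM, and for the miR-200 family at 465 CPM. Old replicate 2 was the lowest for miR-29b at 255 CPM and for the miR-26 family at 57325 CPM. Old replicate 4 was the highest for the cluster of miR-182, miR-183 and miR-96 at 2674 CPM.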

How the results depend on the processing

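Against 70 calls (28 higher, 42 lower), 24 were made without the epithelial-rich libraries (11 higher, 13 lower) and 22 with epithelial covariates (9 higher, 13 lower). For skin and miR-200 family miRNAs both settings remove what is measured. Leaving out 1 library gave 46 to 69 calls, 17 to 31 higher and 29 to 42 lower, the lowest count without young replicate 2. Library totals only gave 16 higher calls. With the covariates the changes of miR-200c (0.14), miR-141 (0.30), miR-203b (0.047), miR-429b (0.37) and the uncalled miR-9 (-0.057) reversed, and the cause was not tested. Tested one by one, 81 of 269 hairpins were called. At 42 against 24 months, library totals gave 4 calls and DESeq2 13, and at 42 against 36 months DESeq2 gave 12. The difference in miR-181a share was -5.52 points without the epithelial-rich libraries (exact permutation adjusted p 0.0794). Its unadjusted p of 0.0476 is the smallest that the 21 splits can give. Without 1 library the difference was between -4.89 and -3.59 (exact permutation adjusted p 0.0397 to 0.0794). The call was lost without any 1 of the young libraries, where young and old shares stayed apart. The uncalled difference in miRNAs detected was -1 with all 10 libraries and 0.6 without the epithelial-rich libraries. No paired analysis was possible because the labels carry no replicate numbers shared between ages. Rare miRNAs are limited by depth, with 22 tested below 10 CPM.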

Other observations

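Hairpin copies that share a miRNA name did not all change by the same size when tested one by one with edgeR. For miR-455, the count of copy 2 summed over 5 libraries was 1259 at 6 months and 351 at 42 months, a log2 change of -2.24 (SE 0.44, adjusted p 7.92e-04), and that of copy 1 was 6547 and 5889, a change of -0.73 (SE 0.27, adjusted p 0.0415). For miR-199, copies 1 and 2 changed by -2.03 each (SE 0.51, adjusted p 0.00619 and 0.00674), and copy 3 by -1.12 (SE 0.31, adjusted p 0.0117). The difference between copies was not tested, and reads that match several copies may have been shared among them. These copies were chosen after their values were seen.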
